A study of Mus musculus with 36 samples.

Results

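*Thrsp*, *Me1*, *Gpd2* and *Bcl3* are long known as genes that thyroid hormone raises in the liver. They were selected by symbol, 4 of the 54532 genes of the count table, by a rule that uses no value measured in these mice but that was set with earlier results of these data known. Liver RNA was sequenced from 36 male mice aged 2 to 3 months on a C57Bl/6NCrl background, kept on chow in equal periods of light and darkness. There were 18 homozygous knockouts of the thyroid hormone receptor THRB (THRB-/-, THRB KO) and 18 controls, with 3 mice per genotype and sampling time, at zeitgeber times (ZT, in hours from lights on) 2, 6, 10, 14, 18 and 22. The controls are heterozygous (THRB+/-), carry 1 altered allele themselves, and are named WT in the labels and THRB WT here. The knockout is present in every tissue, affects both THRB isoforms and was made by impairing DNA binding. A difference between genotypes is therefore one between altered and partly altered mice. The authors describe the heterozygotes as similar in phenotype to wild-type (THRB+/+) mice. Effects of other tissues on the liver cannot be told apart from those within it. The authors name raised serum triiodothyronine, the active thyroid hormone, as a known feature of these knockouts. They propose that it could act through THRA, the other receptor, in the liver. Its part in the differences was not tested. All 4 genes passed the filter of 100 counts summed over the libraries, as did 17994 genes in all.

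Thyroid hormone acts through nuclear receptors, of which THRB is the main form in hepatocytes. Without hormone the receptor holds corepressors at its target genes, and with hormone it exchanges them for coactivators. In the liver the hormone speeds both the making and the burning of fat, and the 4 genes belong to different parts of this response. *Thrsp* (Spot 14) encodes a small protein that promotes fatty acid synthesis. *Me1* encodes cytosolic malic enzyme, which forms NADPH for that synthesis. *Gpd2* encodes the mitochondrial glycerol-3-phosphate dehydrogenase, which passes electrons from cytosolic NADH to the respiratory chain. *Bcl3* encodes an atypical member of the IkappaB family, a nuclear partner of NF-kappaB subunits.

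Of the 4 genes, *Gpd2* was higher in THRB KO than in THRB WT livers and the other three did not differ past the threshold. *Thrsp* had a strong 24-h rhythm in both genotypes, at several times the amplitude of the other three. The genotype effect and the rhythm were not shown to depend on each other for any of the 4 genes. The levels of every mouse are drawn in the plot of the 4 genes by sampling time.

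**Figure D1:**
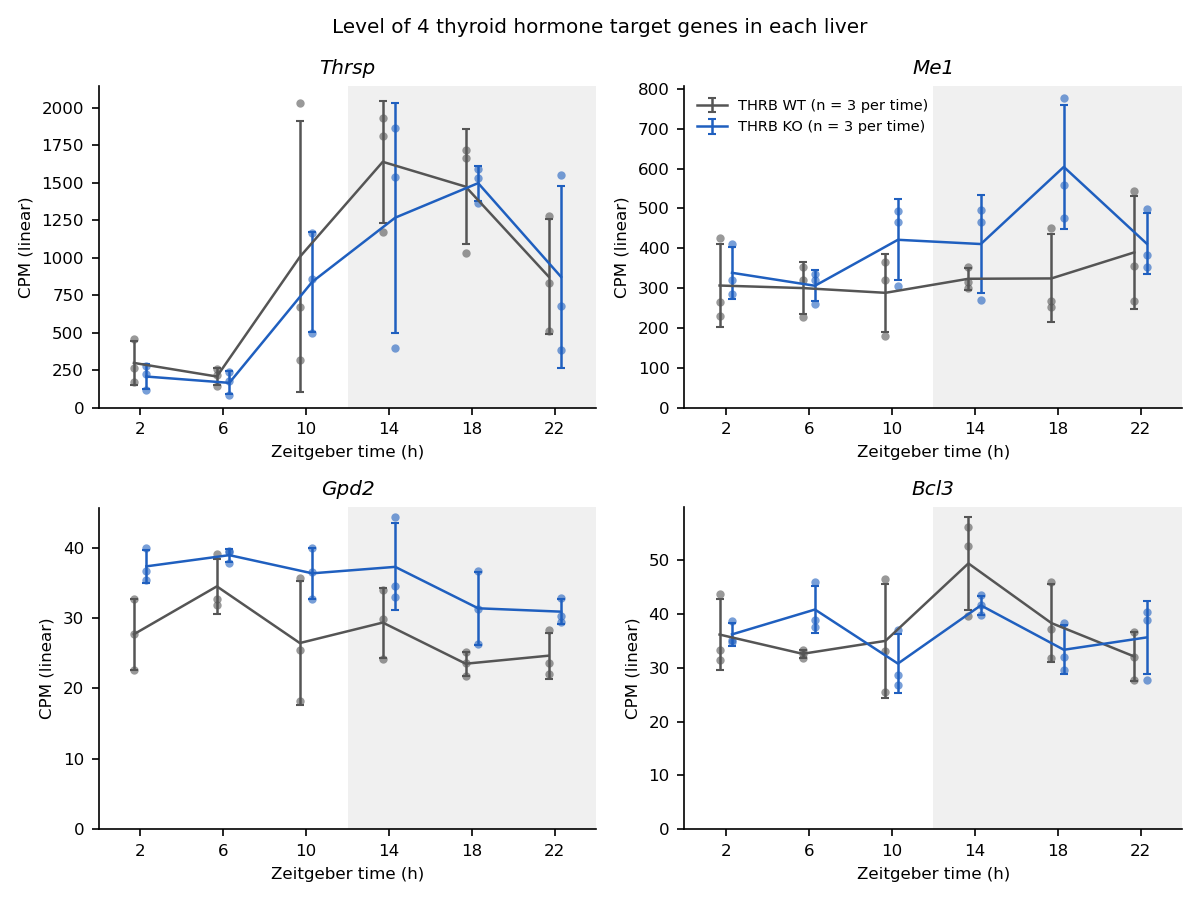
Level of *Thrsp*, *Me1*, *Gpd2* and *Bcl3* in CPM (counts scaled to a common library size, linear axis) against zeitgeber time in hours, with 1 point per mouse, lines through the means and bars of ± 1 SD (n = 3), and darkness in grey. *Thrsp* rises from ZT6 to the dark hours in both genotypes, and the blue mean of *Gpd2* is above the grey one at 6 of 6 times.

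The 4 genes lie on 3 chromosomes of GRCm38 and are all protein-coding. *Thrsp* (ENSMUSG00000035686) is at chr7:97412938-97417730 on the minus strand, with 2 exons in its principal transcript (GENCODE vM21). *Me1* (ENSMUSG00000032418) is at chr9:86581371-86695953 on the minus strand, with 14 exons. *Gpd2* (ENSMUSG00000026827) is at chr2:57237635-57370719 on the plus strand, with 17 exons. *Bcl3* (ENSMUSG00000053175) is at chr7:19808462-19822770 on the minus strand, with 9 exons. The libraries carry no strand information, so reads where genes overlap on opposite strands cannot be assigned to 1 of them. The counts of *A930012O16Rik*, which overlaps the start of *Gpd2*, came to 1.31% of those of *Gpd2*, and the counts of the antisense gene *Gm16174* came to 3.73% of those of *Bcl3*. For *Me1* and its antisense gene *A330041J22Rik* the share was 0.0775%, and no gene overlaps *Thrsp*. These shares compare assigned reads only, so the number of reads left out or misassigned where genes overlap is not known.

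The 250 bases before the start of transcription are shown for each gene (RefSeq, GRCm38.p6, 5′ to 3′ on the strand of the gene), since this is where the receptor's response elements were looked for beside the measured levels. Capitals mark CCAAT boxes (CCAAT, either strand) in *Thrsp*, and in *Me1* and *Bcl3* a pair of half-sites with at most 3 mismatches to the direct repeat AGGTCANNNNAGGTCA. *Me1* and *Gpd2* have a further RefSeq start each, whose window is not printed.
Thrsp, chr7:97417551-97417800, minus strand: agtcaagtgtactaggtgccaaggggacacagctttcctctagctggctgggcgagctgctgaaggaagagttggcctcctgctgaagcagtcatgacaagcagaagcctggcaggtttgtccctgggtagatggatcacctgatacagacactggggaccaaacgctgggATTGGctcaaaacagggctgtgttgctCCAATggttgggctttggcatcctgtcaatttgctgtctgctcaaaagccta
Me1, chr9:86695915-86696164, minus strand: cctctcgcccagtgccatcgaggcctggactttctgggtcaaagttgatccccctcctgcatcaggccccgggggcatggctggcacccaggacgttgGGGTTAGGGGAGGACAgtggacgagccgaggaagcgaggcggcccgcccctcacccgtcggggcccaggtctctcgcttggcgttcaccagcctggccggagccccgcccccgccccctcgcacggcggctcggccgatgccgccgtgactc
Gpd2, chr2:57237428-57237677, plus strand: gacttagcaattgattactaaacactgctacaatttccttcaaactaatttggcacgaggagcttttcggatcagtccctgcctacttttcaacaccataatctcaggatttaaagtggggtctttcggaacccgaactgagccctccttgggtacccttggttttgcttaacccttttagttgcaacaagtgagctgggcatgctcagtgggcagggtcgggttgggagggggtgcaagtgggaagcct
Bcl3, chr7:19822756-19823005, minus strand: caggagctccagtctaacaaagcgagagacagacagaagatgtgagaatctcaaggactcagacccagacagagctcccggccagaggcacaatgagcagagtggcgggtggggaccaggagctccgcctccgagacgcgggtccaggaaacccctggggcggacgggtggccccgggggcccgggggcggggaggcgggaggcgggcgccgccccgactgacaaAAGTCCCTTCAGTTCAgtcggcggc
Motifs were searched on both strands in windows from 250 bases before to 50 after each start, 6 windows for the 4 genes and 32851 for all genes. None of the 6 windows held an exact half-site (AGGTCA, in 16.3% of all windows), the exact direct repeat of half-sites (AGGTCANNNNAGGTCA, in 0.0152%), an E-box (CACGTG, in 7.15%) or a TATA box (TATAAA, in 13.6%). CCAAT was found at -79 to -75 and at -52 to -48 from the start of *Thrsp* and at -208 to -204 from the further start of *Me1*, and stood in 37.4% of all windows. Repeats with at most 3 mismatches began at -152 in *Me1* and at -25 in *Bcl3*. This looser search was added after the exact one had found none, contains the exact repeat, and matched 21.9% of all windows. The windows of *Gpd2*, the gene that differed between genotypes, held none of the motifs searched. These matches are descriptions of letters and were not tested as binding sites. Sites farther from the start were not searched, so a motif missing here can still be present elsewhere in or near the gene.

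Each library held between 29063273 and 39913574 counts in THRB WT and between 31008555 and 42530551 in THRB KO mice. *Thrb* itself was counted at 28.9 ± 3.69 CPM in THRB WT and 31.5 ± 2.70 CPM in THRB KO livers (SD, n = 18 each), which does not check the labels because counts per gene do not separate altered from intact transcripts. Replicate mice of a group differed beyond sampling noise in all 36 pairs, at 32.7 to 136 units of chi-square per gene. Summed hepatocyte markers ranged from 66738 to 92150 CPM in THRB WT and from 73344 to 98381 CPM in THRB KO livers. Of the 8 hepatocyte, 8 Kupffer cell, 8 lymphocyte, 6 endothelial, 6 stellate cell and 5 cholangiocyte markers, 0 were called for genotype in a quasi-likelihood test (edgeR, Benjamini-Hochberg adjusted) or with DESeq2. In edgeR 2 lymphocyte, 2 cholangiocyte and 1 hepatocyte marker had an unadjusted p under 0.05. Over all tested genes 0.95% were called and 12.1% had an unadjusted p under 0.05, so these counts are no result about cell types. The 8 Kupffer cell markers had a combined level of 163 to 555 CPM in THRB WT and 168 to 334 CPM in THRB KO livers. Their log2 fold changes were all negative, from -0.57 to -0.03 with a median of -0.06, and the lowest edgeR adjusted p was 0.682. The 5 cholangiocyte markers also had negative log2 fold changes, from -0.22 to -0.11 (lowest edgeR adjusted p = 0.0957). Their combined level was 34.2 to 63.6 CPM in THRB WT and 27.2 to 51.4 CPM in THRB KO livers. Of 6 neutrophil markers 3 had enough counts to be tested, at a combined level of at most 4.98 CPM, and *Ly6g* had 3 counts over all libraries. None of the 5 adipocyte markers passed the filter. The part of other cell types in the results for the 4 genes was not tested.

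Divided by the gene length given with the counts, the order of the 4 genes was nearly the same in every liver. *Thrsp* had 419 ± 309 RPKM (CPM divided by gene length in kilobases; SD, n = 18) in THRB WT and 369 ± 284 RPKM in THRB KO livers. *Me1* had 83.7 ± 23.1 RPKM in THRB WT and 108 ± 33.6 RPKM in THRB KO livers. *Bcl3* followed with 15.1 ± 3.42 and 14.7 ± 2.22 RPKM, and *Gpd2* with 4.23 ± 0.864 and 5.40 ± 0.690 RPKM. *Thrsp* exceeded *Me1* per length in 34 of 36 livers, with a median ratio of 3.23 and a range from 0.462 to 12.0. The exceptions were THRB KO mouse a at ZT2 and THRB KO mouse b at ZT6, livers with the lowest *Thrsp* of all. *Me1* exceeded *Bcl3*, and *Bcl3* exceeded *Gpd2*, per length in 36 of 36 livers. The order of *Bcl3* and *Gpd2* rests on their lengths of 2475 and 6549 bases. In CPM their means were 37.3 and 27.7 in THRB WT and 36.4 and 35.4 in THRB KO livers, and their order differed between livers.

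*Gpd2* was higher in THRB KO livers. Over all sampling times its mean was 27.7 ± 5.66 CPM in THRB WT and 35.4 ± 4.52 CPM in THRB KO livers (SD, n = 18 each). The lowest, median and highest values were 18.2, 26.5 and 39.0 CPM in THRB WT and 26.2, 35.97 and 44.4 CPM in THRB KO mice. Adjusted for time, the log2 fold change was 0.36 (standard error 0.0661, 95% confidence interval 0.22 to 0.49), and the adjusted p was 0.00202 in a quasi-likelihood test (edgeR, Benjamini-Hochberg adjusted). It was 1 of 171 genes called among those tested (0.95%), and 1 of 91 called higher in THRB KO livers (0.506%). Its p ranked 43 of all tested genes. In a bulk tissue, a higher share of a cell type and more RNA per cell cannot be told apart.

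The difference in *Gpd2* was present across the day. At ZT2 the THRB WT mice a, b and c had 32.7, 27.7 and 22.7 CPM and the THRB KO mice a, b and c had 36.6, 39.9 and 35.5 CPM. At ZT6 the values were 32.6, 31.8 and 39.0 CPM in THRB WT and 39.5, 37.9 and 39.4 CPM in THRB KO mice. At ZT10 they were 25.4, 35.7 and 18.2 CPM in THRB WT and 32.6, 36.5 and 39.9 CPM in THRB KO mice. All 3 knockouts lay above all 3 controls at ZT2, while single controls reached into the knockout range at ZT6 and ZT10. At ZT14 the values were 29.8, 34.0 and 24.1 CPM in THRB WT and 32.9, 44.4 and 34.5 CPM in THRB KO mice. At ZT18 they were 25.1, 23.6 and 21.7 CPM in THRB WT and 26.2, 36.6 and 31.3 CPM in THRB KO mice. At ZT22 they were 22.0, 28.3 and 23.7 CPM in THRB WT and 29.5, 30.3 and 32.9 CPM in THRB KO mice. The genotypes did not overlap at ZT18 and ZT22 either, which makes 3 of 6 sampling times. Genes without overlap made up 12.9% of the tested genes at ZT2, 10.4% at ZT18 and 9.94% at ZT22.

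At 6 of 6 sampling times the THRB KO mean of *Gpd2* exceeded the THRB WT mean, and 8.08% of the tested genes had all 6 means in 1 direction. The ratio of the means ran from 1.13 at ZT6 to 1.37 at ZT10. At single sampling times the unadjusted p was 0.0166 at ZT2, 0.0114 at ZT10 and 0.021 at ZT18, and the lowest adjusted p of any time was 0.864 in a quasi-likelihood test (edgeR, Benjamini-Hochberg adjusted). With times pooled the adjusted p from the same test was 0.0274, among 65 genes called (0.361%). The call held with any 1 of the 36 libraries left out, with a log2 fold change from 0.33 to 0.39. It was lost without the 12 mice of letter a (log2 fold change 0.42, adjusted p = 0.0525 from the same edgeR test) and without those of letter c (0.28, adjusted p = 0.0694), fits that hold 24 libraries in place of 36, and kept without those of letter b (0.39, adjusted p = 0.0173).

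**Figure D2:**
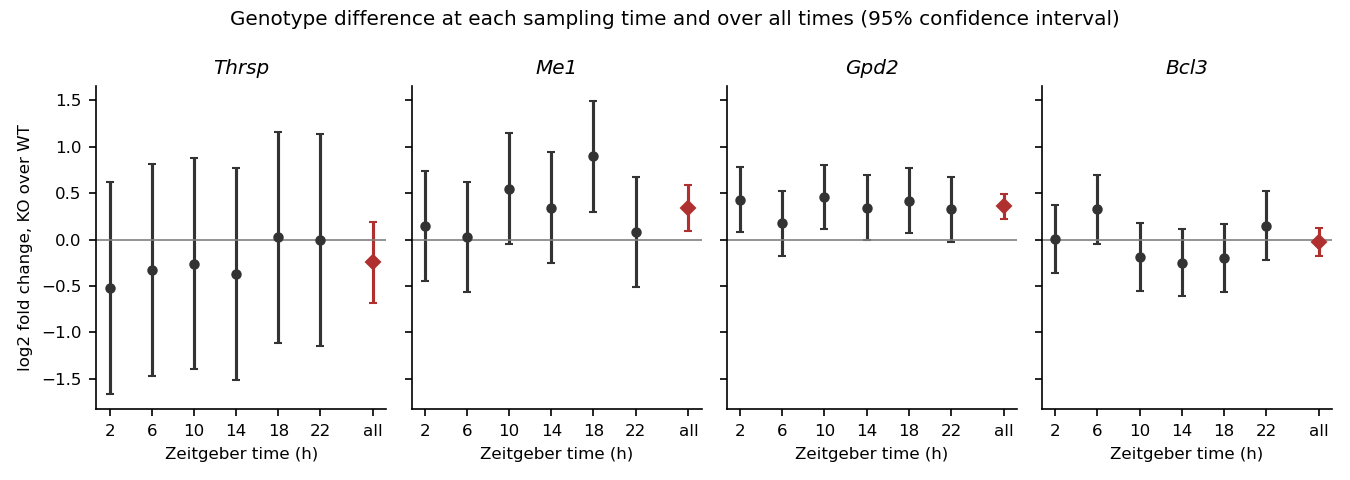
Log2 fold change of THRB KO over THRB WT livers for each gene at each zeitgeber time (circles, 3 mice per genotype) and over all times (diamonds, 18 per genotype), with bars of the 95% confidence interval from edgeR. For *Gpd2* all 6 circles lie above 0, the intervals at ZT6, ZT14 and ZT22 cross 0, and the diamond spans 0.22 to 0.49. For *Thrsp* each interval at a single time crosses 0.

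Other genes that carry reducing equivalents between cytosol and mitochondria were read beside *Gpd2*, against a background of 0.95% of all tested genes called, at which a count of 0 is no result about a short list. Of 11 genes of the NADH shuttles and of glycerol phosphate, 0 were called by edgeR (3 at an unadjusted p under 0.05) and 0 by DESeq2, and 7 had a positive log2 fold change, with a median of 0.01 against -0.0011 over all tested genes. *Slc25a12*, a mitochondrial aspartate-glutamate carrier of the malate-aspartate shuttle, had 16.2 ± 2.02 CPM in THRB WT and 17.9 ± 1.83 CPM in THRB KO livers (log2 fold change 0.15, edgeR adjusted p = 0.194). *Gk*, glycerol kinase, differed by 0.13 on the log2 scale (edgeR adjusted p = 0.371). *Gpd1*, the cytosolic partner of *Gpd2* in the glycerol phosphate shuttle, had 379 ± 65.2 and 376 ± 51.0 CPM (SD, n = 18 each); it is outside the naming rule and was added after its values were seen.

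*Me1* had a higher mean in THRB KO livers, but the difference did not pass the threshold. Its mean was 322 ± 89.0 CPM in THRB WT and 415 ± 129 CPM in THRB KO livers (SD, n = 18 each), with lowest, median and highest values of 179, 317 and 545 CPM and of 261, 397 and 777 CPM. The log2 fold change was 0.34 (standard error 0.122, 95% confidence interval 0.09 to 0.59), with an unadjusted p of 0.00887 and an adjusted p of 0.215 in a quasi-likelihood test (edgeR, Benjamini-Hochberg adjusted). An unadjusted p under 0.05 was found for 12.1% of the tested genes. The estimate for *Me1* was close to that for *Gpd2*, with a larger standard error.

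The largest difference in *Me1* was at ZT18. At ZT2 the THRB WT mice a, b and c had 229.7, 426 and 264 CPM and the THRB KO mice 285, 411 and 319 CPM. At ZT6 the values were 227, 353 and 320.2 CPM in THRB WT and 336, 319.8 and 261 CPM in THRB KO mice. At ZT10 they were 319.6, 366 and 179 CPM in THRB WT and 493, 304 and 467 CPM in THRB KO mice. The genotypes overlapped at each of these times, and the ratio of the means was 1.02 at ZT6. At ZT14 the values were 301, 354 and 315 CPM in THRB WT and 465, 496 and 270.1 CPM in THRB KO mice. At ZT18 they were 252, 269 and 451 CPM in THRB WT and 476, 559 and 777 CPM in THRB KO mice. At ZT22 they were 545, 356 and 268 CPM in THRB WT and 383, 353 and 498 CPM in THRB KO mice. The genotypes were apart at ZT18 alone (10.4% of the tested genes did not overlap then), where the log2 fold change was 0.90 with an unadjusted p of 0.00462 and an adjusted p of 0.744 in a quasi-likelihood test (edgeR, Benjamini-Hochberg adjusted); 0.0222% of the tested genes were called at that time. The means were higher in THRB KO mice at 6 of 6 times, but leaving out the mice of 1 letter reversed the sign at ZT6 and ZT22.

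Of 10 malic enzymes and other NADPH-forming enzymes, 0 were called by edgeR (0.95% of all tested genes; 2 of the 10 at an unadjusted p under 0.05) or by DESeq2, and 6 had a positive log2 fold change, with a median of 0.03. *Me3*, a mitochondrial malic enzyme, was barely counted, at 0.0977 ± 0.0783 CPM in THRB WT and 0.174 ± 0.0788 CPM in THRB KO livers (log2 fold change 0.82, edgeR adjusted p = 0.263). *Mthfd1*, of the folate pathway, had 255 ± 21.6 and 271 ± 27.04 CPM (edgeR adjusted p = 0.388).

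*Thrsp* varied far more between hours of the day and between mice than between genotypes. Its mean was 917 ± 677 CPM in THRB WT and 808 ± 623 CPM in THRB KO livers (SD, n = 18 each), with lowest, median and highest values of 147, 752 and 2029.7 CPM and of 84.0, 587 and 1863 CPM. Adjusted for time, the log2 fold change was -0.24 (standard error 0.213, 95% confidence interval -0.68 to 0.19), with an unadjusted p of 0.26 and an adjusted p of 0.714 in a quasi-likelihood test (edgeR, Benjamini-Hochberg adjusted). With single libraries left out it ran from -0.35 to -0.11, the latter without THRB WT mouse a of ZT10, and was called in 0 of 36 fits. At 5 of 6 times the THRB KO mean was below the THRB WT mean. The interval allows differences in *Thrsp* of up to -0.68, larger than the one measured for *Gpd2*, so the absence of a call does not show equal levels.

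*Thrsp* was low at ZT2 and ZT6 and higher from ZT10 to ZT22. At ZT2 the THRB WT mice a, b and c had 171, 458 and 265 CPM and the THRB KO mice 119, 278 and 224 CPM. At ZT6 the values were 147, 218 and 257 CPM in THRB WT and 235, 84.0 and 176 CPM in THRB KO mice. None of these 12 livers exceeded 458 CPM. At ZT10 mouse values were 2029.7, 670.5 and 316 CPM in THRB WT and 1162, 497 and 859 CPM in THRB KO livers. At ZT14 they were 1815, 1174 and 1932 CPM in THRB WT and 1863, 1539 and 400.5 CPM in THRB KO livers. THRB WT mouse a at ZT10 had the highest value of all, and THRB KO mouse c at ZT14 stood far below the other two of its group. At ZT18 the values were 1721, 1034 and 1669 CPM in THRB WT and 1595, 1367 and 1532 CPM in THRB KO mice. At ZT22 they were 1279, 833 and 511 CPM in THRB WT and 677, 387 and 1553 CPM in THRB KO mice. The genotypes overlapped at 6 of 6 times, and the spread within a group was widest at ZT10 in THRB WT (SD 904 CPM) and at ZT14 in THRB KO mice (SD 768 CPM).

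A 24-h cosine fitted *Thrsp* well in both genotypes. The amplitude, the height of the fitted peak over the mean on the log2 CPM scale, was 1.55 (standard error 0.235) in the controls and 1.66 (standard error 0.277) in the knockouts. The peak fell at ZT16.2 (standard error 0.577 h) and at ZT16.3 (standard error 0.637 h). The rhythm had an adjusted p of 0.000123 in the controls and of 5.63e-05 in the knockouts in a quasi-likelihood test (edgeR, Benjamini-Hochberg adjusted). Of the tested genes, 35.1% were called rhythmic in THRB WT livers and 31.5% in those of THRB KO mice. From the lowest to the highest sampling time the mean rose 7.91-fold in THRB WT (207 CPM at ZT6, 1640.4 CPM at ZT14) and 9.08-fold in THRB KO livers (165 CPM at ZT6, 1498 CPM at ZT18). Among 11918 genes with a mean of at least 50 counts, 99.6% had a lower fitted amplitude than *Thrsp* in the controls and 99.7% in the knockouts. The amplitudes differed by 0.10 (standard error 0.363) and the peak times by 0.0529 h (standard error 0.859 h), with an adjusted p of 1 for a difference of rhythm in the same edgeR test (unadjusted p = 0.857). Shifts in peak time within this error were not detectable with 3 mice per point.

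The fitted rhythms of the other 3 genes were shallower than that of *Thrsp*. *Me1* had an amplitude of 0.15 (standard error 0.133) in THRB WT livers (adjusted p = 0.51) and of 0.37 (standard error 0.115) in THRB KO livers, with a peak at ZT17.2 (standard error 1.204 h, edgeR adjusted p = 0.0277). This call was lost in each fit without 1 letter (adjusted p from 0.0614 to 0.146, edgeR). It was not kept with a test of the 6 sampling times free of any curve shape (adjusted p = 0.107, edgeR; that test called 26.4% of the tested genes in the controls and 24.9% in the knockouts), and the difference of rhythm between genotypes had an unadjusted p of 0.164 and an adjusted p of 1, so a rhythm of *Me1* particular to THRB KO livers was not shown. The fitted amplitude of *Me1* was above that of 47.0% of the 11918 genes in the controls and of 87.1% in the knockouts. *Gpd2* had amplitudes of 0.18 (standard error 0.0932, peak at ZT6.86, adjusted p = 0.0739) and 0.16 (standard error 0.0522, peak at ZT7.52, edgeR adjusted p = 0.209), neither past the threshold. Its highest means were at ZT6 in both genotypes, when *Thrsp* was lowest. *Bcl3* had an amplitude of 0.20 (standard error 0.0970, adjusted p = 0.0965) in the controls and of 0.03 (standard error 0.0803, adjusted p = 0.955, same edgeR test) in the knockouts.

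The difference of rhythm had an adjusted p of 1 for each of the 4 genes in a quasi-likelihood test (edgeR), as had the interaction of genotype and sampling time. Over all tested genes 0 (0%) were called for either, with 553 genes (3.07%) at an unadjusted p under 0.05 for the rhythm and 484 (2.69%) for the interaction. Between genotypes at single times, 0 of the 24 pairs of a gene and a time were called, against 0.0278% of the tested genes at ZT2, 0.0111% at ZT6, 0.0167% at ZT10, 0.0167% at ZT14, 0.0222% at ZT18 and 0.0222% at ZT22, and 4 pairs had an unadjusted p under 0.05, as had 4.12% to 5.43% of the tested genes at single times. The groups were apart in 5 of the 24 pairs and in none at ZT10 or ZT14, when 7.95% and 10.2% of the tested genes were apart. The unadjusted p of the interaction was 0.979 for *Thrsp*, 0.282 for *Me1*, 0.859 for *Gpd2* and 0.188 for *Bcl3*.

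**Figure D3:**
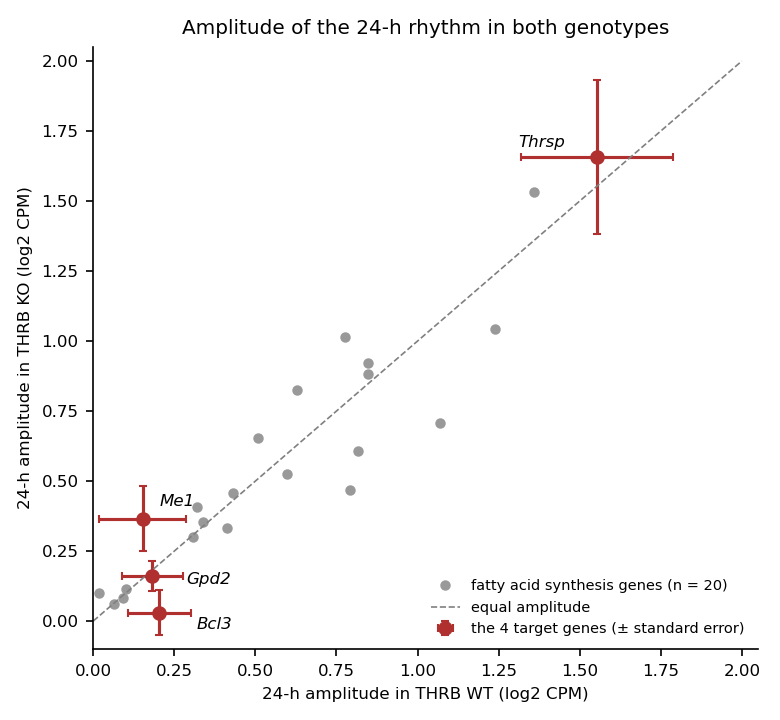
Amplitude of the 24-h rhythm (log2 CPM, 18 livers per genotype) in THRB KO against THRB WT livers for the 4 genes (red, with bars of ± 1 standard error) and for 20 fatty acid synthesis genes (grey), with the line of equal amplitude. *Thrsp*, at 1.55 and 1.66, lies above and to the right of the grey points, and *Gpd2* and *Bcl3* lie near the origin.

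Many genes of fatty acid synthesis, the pathway that *Thrsp* and *Me1* serve, varied with the time of day. A rhythm was called for 14 of 20 such genes in THRB WT livers (35.1% of all tested genes) and again for 14 in THRB KO livers (31.5% of all), while edgeR called 0 for genotype (0.95% of all tested genes; 1 of the 20 at an unadjusted p under 0.05), as did DESeq2. The median log2 fold change of the 20 was 0.04. The smallest p-values belonged to *Slc25a1*, the mitochondrial citrate carrier (322 ± 23.9 and 304 ± 22.7 CPM, log2 fold change -0.08, edgeR adjusted p = 0.359), and *Fads1*, a fatty acid desaturase (536 ± 58.6 and 506 ± 75.2 CPM, adjusted p = 0.574). Outside the naming rule and chosen after its values were seen, *Mid1ip1*, the paralog of *Thrsp*, had an amplitude of 0.43 with a peak at ZT16.3 in the controls and of 0.46 with a peak at ZT15.6 in the knockouts. Its peak lay near that of *Thrsp* and its amplitude was lower. The clock genes were called rhythmic in both genotypes, 12 of 12 in each, and 0 were called for genotype by edgeR or DESeq2, with 0 at an unadjusted p under 0.05.

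*Bcl3* did not differ between genotypes beyond its error. Its mean was 37.3 ± 8.48 CPM in THRB WT and 36.4 ± 5.50 CPM in THRB KO livers (SD, n = 18 each), with lowest, median and highest values of 25.5, 33.3 and 56.1 CPM and of 26.8, 38.0 and 45.9 CPM. The log2 fold change was -0.03 (standard error 0.0767, 95% confidence interval -0.18 to 0.13), with an adjusted p of 0.933 in a quasi-likelihood test (edgeR, Benjamini-Hochberg adjusted). The interval is narrower than that of *Thrsp* or *Me1* and ends below the lower bound for *Gpd2*.

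The sign for *Bcl3* changed between hours. At ZT2 the THRB WT mice a, b and c had 43.7, 33.3 and 31.5 CPM and the THRB KO mice 38.7, 35.1 and 34.9 CPM. At ZT6 the values were 32.6, 33.3 and 31.9 CPM in THRB WT and 39.0, 37.7 and 45.9 CPM in THRB KO mice. At ZT10 they were 33.1, 25.5 and 46.5 CPM in THRB WT and 26.8, 37.0 and 28.6 CPM in THRB KO mice. The 3 knockouts lay above the 3 controls at ZT6 (8.41% of the tested genes did not overlap then), with a log2 fold change of 0.32 and an unadjusted p of 0.081. At ZT14 the values were 39.6, 52.6 and 56.1 CPM in THRB WT and 39.8, 43.5 and 41.6 CPM in THRB KO mice. At ZT18 they were 46.1, 31.7 and 37.2 CPM in THRB WT and 38.4, 32.1 and 29.6 CPM in THRB KO mice. At ZT22 they were 27.7, 36.7 and 31.9 CPM in THRB WT and 27.8, 38.8 and 40.4 CPM in THRB KO mice. The mean was highest at ZT14 in both genotypes (49.4 and 41.6 CPM), higher in THRB KO mice at 3 times and lower at 3.

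The lists nearest to *Bcl3* held few genes against a background of 0.95% of all tested genes called for genotype, so counts of 0 are no result about them. Of 10 genes of the NF-kappaB and IkappaB families 0 were called in a quasi-likelihood test (edgeR, Benjamini-Hochberg adjusted) and 0 by DESeq2, 1 had an unadjusted p under 0.05, and the median log2 fold change was 0.03. *Nfkbiz*, another nuclear IkappaB protein, had the smallest p (8.43 and 9.46 CPM, log2 fold change 0.16, unadjusted p = 0.0368), followed by *Nfkbib* (21.2 and 20.4 CPM, unadjusted p = 0.161). Of 13 acute phase and STAT3-responsive genes 0 were called by edgeR or DESeq2 and 0 had an unadjusted p under 0.05, 5 with a positive and 8 with a negative log2 fold change. *Saa1*, serum amyloid A, had a log2 fold change of -0.57 (48.6 and 30.6 CPM, adjusted p = 0.426, same edgeR test) and *Hp*, haptoglobin, of -0.15 (2809 and 2517 CPM, adjusted p = 0.46).

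Beyond the 4 genes, 24 further liver genes known to respond to thyroid hormone were read in the same way. Of the 24, 1 was called higher (0.506% of all tested genes) and 1 lower (0.445%) in THRB KO livers, with a median log2 fold change of 0.04. The 4 genes themselves had 1 higher and 0 lower, with a median of 0.16. *Dio1*, the deiodinase that activates and clears thyroid hormone, fell from 94.4 ± 32.0 to 48.3 ± 12.3 CPM (log2 fold change -0.97, standard error 0.137, edgeR adjusted p = 4.19e-05). *Abcd2*, a peroxisomal transporter of very long-chain acyl-CoA, rose from 15.5 ± 8.83 to 32.2 ± 14.7 CPM (log2 fold change 1.07, standard error 0.180, edgeR adjusted p = 0.000586). The call for *Dio1* held without the mice of any 1 letter, and that for *Abcd2* was lost without letter c (log2 fold change 0.99, edgeR adjusted p = 0.0573). DESeq2 called both and, outside the naming rule, *Cyp7a1*, the rate-limiting enzyme of bile acid synthesis (99.0 ± 62.8 and 149 ± 88.5 CPM, edgeR adjusted p = 0.0796). The estimates for *Dio1* and *Abcd2* were larger in size than that of *Gpd2*, and in opposite directions to each other. A rhythm was called for 17 of the 24 in THRB WT livers, where 35.1% of all tested genes were called, and for 16 in THRB KO livers, where 31.5% were. Some of these genes also stand in the list of fatty acid synthesis, so the rhythm counts of both lists share genes.

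**Figure D4:**
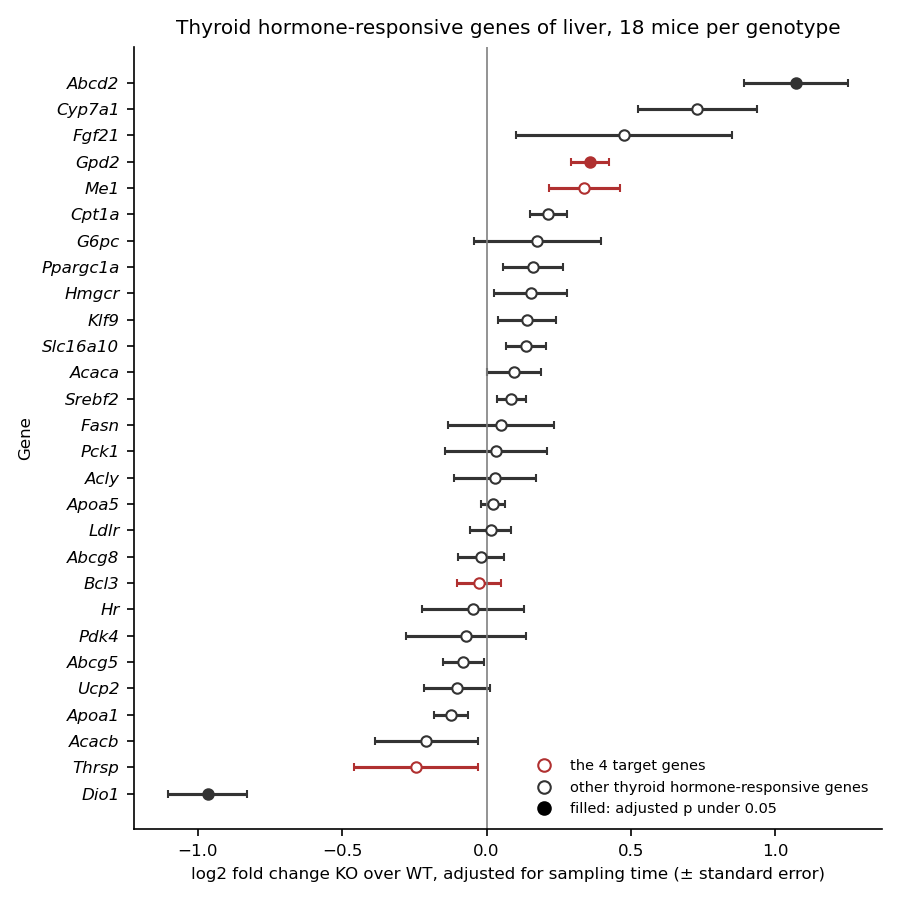
Log2 fold change of THRB KO over THRB WT livers, adjusted for sampling time, with bars of ± 1 standard error (18 mice per genotype), for the 4 genes (red) and 24 other thyroid hormone-responsive genes (black), filled where the adjusted p from edgeR was under 0.05. *Abcd2* at 1.07 and *Gpd2* at 0.36 are filled on the right and *Dio1* at -0.97 on the left, and the other genes spread on both sides of 0.

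The receptors and their partners were read against the same background of 0.95%. Of 11 receptors, partners and cofactors 0 were called in a quasi-likelihood test (edgeR, Benjamini-Hochberg adjusted) and 0 by DESeq2, with 1 at an unadjusted p under 0.05, a median log2 fold change of 0.05, and 10 of 11 positive. *Thrb* had a log2 fold change of 0.13 (unadjusted p = 0.0218, adjusted p = 0.309 in the same test). *Thra*, the other receptor gene, had 17.8 ± 5.96 CPM in THRB WT and 17.0 ± 5.02 CPM in THRB KO livers (log2 fold change -0.06, adjusted p = 0.788, same test), and had an amplitude of 0.56 in both, with peaks at ZT3.68 and ZT3.22. On this fit *Thra* was lowest early in the dark phase, near the peak of *Thrsp*. *Ncoa2*, a coactivator, had the next smallest p (27.9 and 29.1 CPM, unadjusted p = 0.0618).

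Within groups of 1 genotype and 1 time, *Thrsp* and *Me1* were high or low in the same livers. The deviations of log2 CPM from the group means had a Pearson r of 0.700 and a Spearman rho of 0.679 over 36 livers. Permutation of the mice within groups (two-sided, 100000 resamples) gave p = 0.00021 for r and p = 0.00032 for rho, and 0.00126 and 0.00192 after Benjamini-Hochberg adjustment over the 6 pairs of the 4 genes. Each group was shuffled separately. Over all genes, deviations of THRB WT and THRB KO mice of the same time and letter were correlated, with r over 0.1 in 16 of 18 pairs. The permutation p-values treat these mice as independent and may be too small. Without the 2 livers farthest from the median of *Thrsp* r was 0.614. Among the controls r was 0.688 and among the knockouts 0.735, and 0.762, 0.730 and 0.788 in mice of letter a, b and c. The r was thus positive in each genotype and letter. These subsets were not tested, and the genotypes may not be independent of each other. *Me1* and *Bcl3* had a negative relation (r = -0.482, rho = -0.467, permutation p = 0.0235, adjusted 0.0705), which did not pass the threshold after adjustment, and the other 4 pairs had adjusted p from 0.564 to 0.733 for r.

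**Figure D5:**
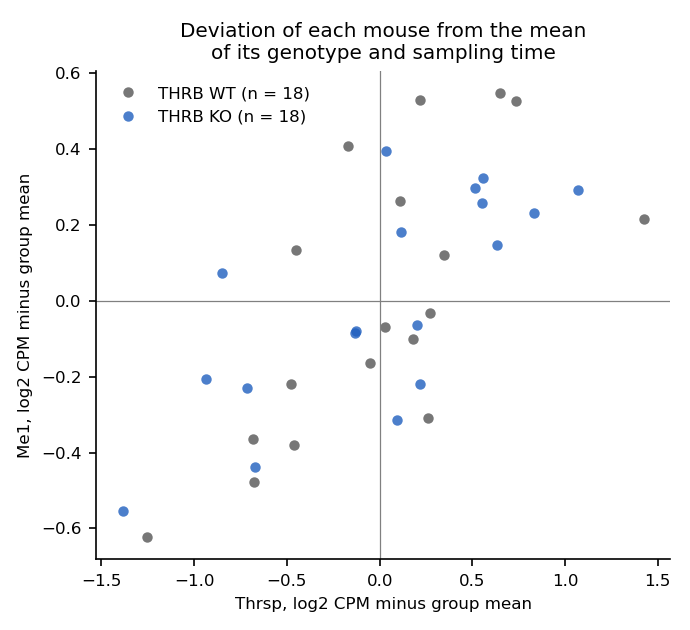
Deviation of *Me1* against that of *Thrsp* in each liver, in log2 CPM minus the mean of the 3 mice of its group (18 THRB WT in grey, 18 THRB KO in blue). The points run from lower left to upper right in both genotypes, with r of 0.688 and 0.735.

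The genes most like each of the 4 over the 36 livers were ranked by Pearson r of log2 CPM among 11917 genes with a mean of at least 50 counts. For *Thrsp* they were *Asl* (r = 0.921), which encodes argininosuccinate lyase of the urea cycle, *Lingo4* (0.915), *Vac14* (0.903), *Prnp* (0.884) and *Spc24* (0.882). For *Me1* they included *Gm35986* (0.814), *Sar1b* (0.761), *Eno1* (0.749) and *Reck* (0.730). *Eno1* encodes an enolase, an enzyme of glycolysis. For *Gpd2* they were *Pdp2* (0.706), a phosphatase of pyruvate dehydrogenase, the carrier *Slc25a12* (0.700), *Farp2* (0.692), *Trip12* (0.685) and *Il22ra1* (0.676). For *Bcl3* they were *Rbm12* (0.749), *Rbm15b* (0.733), *Dvl3* (0.726), *Golt1b* (0.720) and *Ints5* (0.708). These values share sampling times, so genes with the same peak time have a high r, and the r for *Thrsp* were the highest of the 4.

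With the group means removed, other genes came first. For *Thrsp* they included *Paox* (r of the deviations 0.861), *Pklr* (0.826), *Gm15408* (0.821) and *Hcn3* (0.797). For *Me1* they were *Tmem135* (0.881), *Pklr* (0.859), *Gm35986* (0.849), *Scd1* (0.847) and *Lactb2* (0.828). *Pklr*, the liver form of pyruvate kinase, stood in both lists, and *Scd1* encodes the stearoyl-CoA desaturase. For *Gpd2* they were *Rab11fip3* (0.823), the pseudogene *Gm21399* (0.734), *Dnm2* (0.723), the pseudogene *Got2-ps1* (0.710) and *Vcl* (0.697). For *Bcl3* they were *Msl1* (0.816), *Rbm12* (0.774), *Pard6b* (0.719), *Pdik1l* (0.692) and *Tmem50b* (0.676). The 2 pseudogenes can share reads with their parent genes and *Gm35986* is annotated as antisense, so their values are uncertain in these libraries.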

How the data were processed

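Total liver RNA was poly-A selected and sequenced as paired-end, non-directional libraries. The authors removed low-quality reads, mapped the rest to GRCm38 with HISAT2, counted reads per gene with FeatureCounts and deposited these counts, whole numbers without normalization, for 54532 genes. Versions, annotation release and treatment of reads with several matches are not given in the sources used here. Such reads can move between similar genes.

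Genotypes, sampling times and the letters a to c came from the labels. The letters name single mice, and no source says that each is a separate litter or batch. Genes with at least 100 counts summed over 36 libraries were tested with edgeR 4.0.16 (TMM, glmQLFit and glmQLFTest, limma 3.58.1, R 4.3.3), over all 17994 genes, with Benjamini-Hochberg adjustment and a threshold of 0.05. Genotype was tested with sampling time as a factor, pooled, and at each time. Rhythms were tested with sine and cosine terms of a 24 h period, and amplitudes and peak times come from cosine fits to log2 CPM (prior count 2). Standard errors of fold changes were derived from the F statistic. Scripts were tested on simulated counts. TMM factors ranged from 0.941 to 1.06. Alternatives were DESeq2 1.42.0, its size factors, other filters, robust estimation, pairing by letter and leaving out mice. Leaving out single libraries, the looser motif search and the genes named outside the rule were added after values had been seen.

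Named are the 4 genes, the called genes of each pathway list (otherwise the 2 with the smallest p), *Thrb*, *Thra*, *Dio1*, and the 5 genes most like each member by 2 measures, some of which are not reported here. Marker lists are given as counts of genes tested or called and, for some, as summed levels, ranges of fold change and the lowest adjusted p. Of the markers only *Ly6g* is named. The 4 genes and all lists were chosen with earlier results of these data known.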

Additional observations from a re-analysis of the deposited data

How the results depend on the processing

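*Gpd2* was called under 8 of 10 alternatives to the comparison adjusted for time, and *Thrsp*, *Me1* and *Bcl3* under none of them. The alternatives include the fit with times pooled, which holds no term for time. Leaving out the mice of letters a, b and c in turn gave log2 fold changes from 0.28 to 0.42 for *Gpd2* (called without letter b only), from -0.082 to 0.0079 for *Bcl3*, whose sign changed, and from 42 to 85 called genes in place of 171. Pooling the times gave 65 called genes, DESeq2's likelihood ratio test 306 and the replicate block 387. The block paired mice by time and letter. Of the 18 pairs 16 had a correlation of deviations over 0.1 (range -0.0733 to 0.397) and 17 correlated best with their own letter. The column headers of the deposited counts carry numbers that lie next to each other in several of these pairs. No source used here gives the meaning of these numbers. The block changed no call for the 4 genes for genotype adjusted for time, the interaction and the difference of rhythm, the 3 tests run. Single times and rhythms within 1 genotype were not fitted with the block. The rhythm of *Me1* in THRB KO livers had an adjusted p from 0.0614 to 0.146 with letters left out and 0.107 with 5 coefficients of time (edgeR, Benjamini-Hochberg adjusted), and the cause of the loss was not tested. At single times the sign changed with a letter left out for *Me1* at ZT6 (-0.21 to 0.17) and ZT22 (-0.29 to 0.45), for *Thrsp* at ZT6 (-0.86 to 0.028), ZT10 (-0.70 to 0.47), ZT14 (-0.73 to 0.19), ZT18 (-0.12 to 0.11) and ZT22 (-0.99 to 0.53), and for *Bcl3* at ZT2 (-0.063 to 0.12) and ZT10 (-0.52 to 0.12), none of them called. With single libraries left out *Bcl3* ran from -0.050 to 0.015, above 0 without THRB WT mouse c of ZT10 or mouse a of ZT18. *Gpd1*, with almost no difference, changed sign with the size factors of DESeq2 (0.00037), without a filter (0.0023), with DESeq2 (0.00033) and with a letter left out (from -0.020 to 0.015), and *Abcd2* lost its call without letter c. With 3 mice per group the SD of *Thrsp* ran from 7.84% to 89.9% of its mean, which limits what single times can show.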
